A study of Mus musculus with 8 samples.

Results

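The transcription factor genes named Fos, Fosb, Fosl1, Fosl2, Jun, Junb, Jund, Egr1, Egr2 and Egr3 were followed in mouse fat cell cultures; all 10 were found by symbol among the 22962 genes of a bulk RNA-seq table. Their Entrez gene identifiers there run from 14281 to 14284 for Fos, Fosb, Fosl1 and Fosl2, from 16476 to 16478 for Jun, Junb and Jund, and from 13653 to 13655 for Egr1, Egr2 and Egr3. The study grew cells of the stromal vascular fraction of wild-type (WT) gonadal fat, the mixture that is left when floating fat cells are removed, and differentiated them into adipocytes in culture. The cultures had either DoxSa (4 libraries) or the solvent DMSO (4 libraries), with day 6 given as the time; whether treatment began or ended then is not stated. DoxSa is not spelled out in the labels, which also give no dose and no length of exposure; the study is about deoxysphingolipids, sphingolipids without one of the usual hydroxyl groups. Nothing in the labels ties a library to its own culture or mouse, so the spread behind each p-value may be technical.

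FOS and JUN proteins are basic leucine zipper proteins that pair to form AP-1, a dimer that binds DNA at short sites in many genes of inflammation, matrix turnover and growth. Jun proteins can pair with each other or with Fos proteins, while Fos proteins need a partner such as a Jun protein. EGR proteins bind GC-rich sites through zinc fingers. Several of these genes, Fos and Egr1 above all, are immediate early genes, switched on within minutes of a stimulus by factors that are already in the cell and then shut off again, so a library taken at a fixed time shows only what is left of such a wave.

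Junb and Egr2 rose in DoxSa, by 1.25-fold and 1.53-fold in mean FPKM. They were the only called genes among the 8 members that could be tested, a share to be read against the 3.88% of 12060 tested genes that were called higher by limma at a Benjamini-Hochberg adjusted p under 0.05. None of the 8 was called lower (limma; 0 at an unadjusted p under 0.05, and 0 by voom on recovered reads), where 2.02% of all tested genes were. Jun lay above every DMSO library in every DoxSa library but had an adjusted p of 0.0537. Leaving out DoxSa 2 left 0 members called, and leaving out DoxSa 1 or DMSO 2 left 1. Fos and Egr1 overlapped widely between the groups, and their 4 DMSO libraries differed among themselves. Fosl2 and Jund had nearly equal means in DoxSa and DMSO. Fosb and Egr3 were below the minimum mean of 0.5 FPKM and were not tested.

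FPKM is the number of reads of a gene per kilobase of its length and scaled to the size of the library. Fold changes are differences of log2(FPKM + 1), DoxSa minus DMSO, which understate the change of low genes. The DoxSa libraries lay wholly above the DMSO libraries for 3 of the 8 tested members, namely Jun, Junb and Egr2, and for 7.80% of all tested genes. The median log2 fold change was 0.22 over the 8 tested members and 0.01 over all tested genes.

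**Figure D1:**
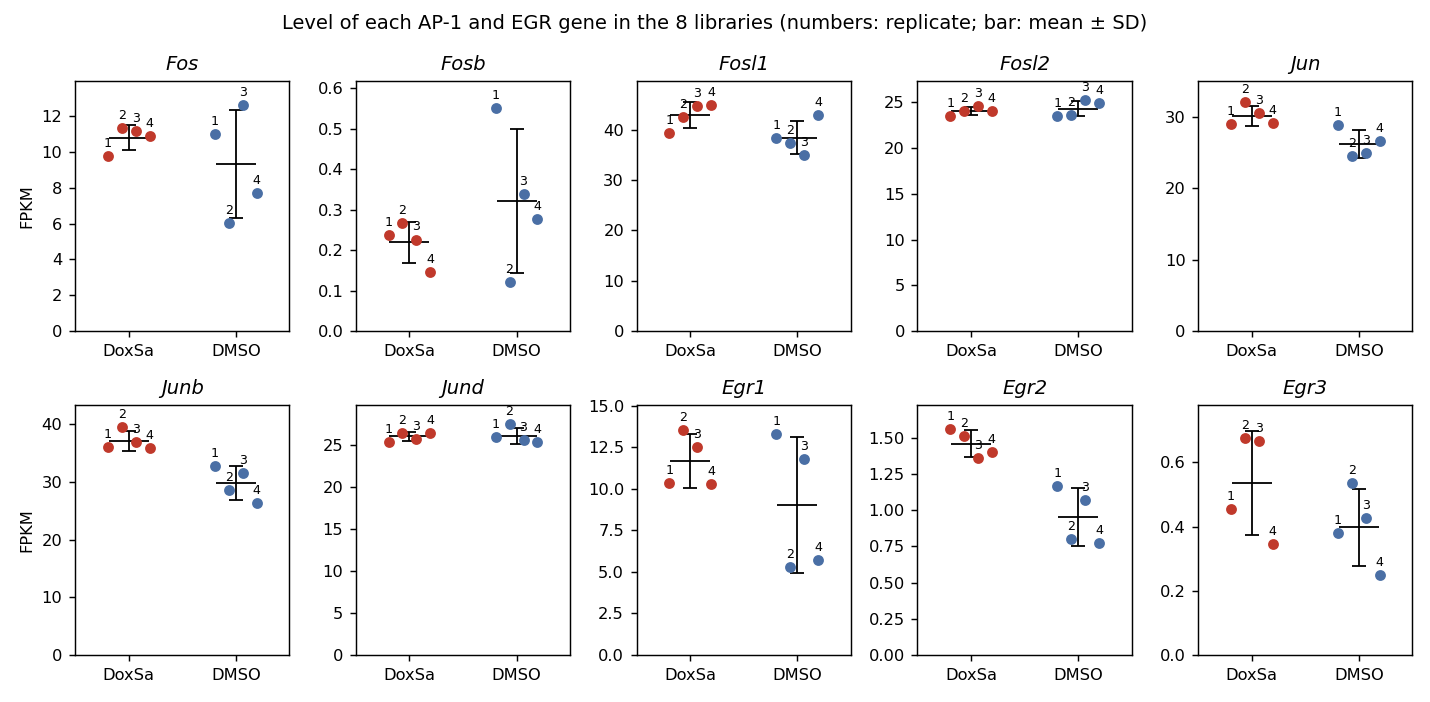
FPKM of each of the 10 genes (vertical axes, starting at 0) in the DoxSa libraries, left, and the DMSO libraries, right; points carry the replicate number and bars show the mean ± SD of 4 libraries. Junb, Jun and Egr2 have no DMSO point as high as their lowest DoxSa point, whereas for Fos and Egr1 the DMSO points 1 and 3 lie at or above the DoxSa mean and the DMSO points 2 and 4 lie below every DoxSa point.

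Junb encodes a Jun protein that is a weaker activator than c-Jun at many sites and can restrain it. It measured 36.1, 39.5, 37.0 and 35.9 FPKM in DoxSa 1 to 4, against 32.8, 28.6, 31.5 and 26.3 FPKM in DMSO 1 to 4. DMSO 1 came closest to the DoxSa libraries and DMSO 4 was lowest. The means were 37.1 ± 1.68 FPKM in DoxSa and 29.8 ± 2.94 FPKM in DMSO (SD, n = 4 each), with a log2 fold change of 0.31 ± 0.06 (SE, 95% interval 0.17 to 0.45, limma adjusted p = 0.0156). Over the alternatives the adjusted p lay between 0.00347 and 0.0877, and the call was lost without DoxSa 2 (0.0527) and when low genes were not filtered out (0.0877).

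Jun encodes c-Jun, the founding Jun protein and a target of the stress kinase JNK. It measured 29.0, 32.0, 30.5 and 29.2 FPKM in DoxSa 1 to 4, against 28.9, 24.5, 24.9 and 26.6 FPKM in DMSO 1 to 4. The groups were apart by a narrow margin, set by DoxSa 1 and DMSO 1. The log2 fold change was 0.20 ± 0.05 (SE, n = 4 each, 95% interval 0.08 to 0.31, limma adjusted p = 0.0537). The adjusted p was 0.0139 without DMSO 1, 0.0227 by voom on recovered reads and 0.0453 with a minimum mean of 2 FPKM, and it lay between 0.0139 and 0.164 over all alternatives. Junos, a non-coding gene that starts close to Jun, had no more than 0.118 FPKM in any library.

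Jund encodes the Jun protein that is present in most resting cells and varies least with stimulation. It measured 25.3, 26.4, 25.7 and 26.4 FPKM in DoxSa 1 to 4, against 26.0, 27.4, 25.6 and 25.3 FPKM in DMSO 1 to 4. The ranges overlapped almost entirely, and the 95% interval of the log2 difference, -0.08 to 0.07, spans 0 (limma adjusted p = 0.969, n = 4 each). A difference as large as the estimate for Junb lies outside that interval.

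Promoter sequences are shown for both called genes, and for Jun because its promoter holds a well known site through which Jun proteins act on their own gene. They are RefSeq windows of 300 bases on GRCm38.p6, from 250 bases before the annotated start to 50 after it, and 7 of the 10 genes matched a window. Matches to 6 motifs, searched on both strands, are in capitals. They were TGACNTCA (the cyclic AMP response element and its close relatives), TGANTCA (AP-1), the CArG box (bound by serum response factor), GCGTGGGCG (EGR), the NF-kB consensus and TATAAA. Of 5 overlapping or neighbouring windows of Egr2, 4 hold a CArG box, and the one shown, picked to show that motif, is the first of 3 that hold the same match. The remaining Egr2 window holds no CArG box but matches to the NF-kB consensus, from -117 to -107, as do, at other places, the windows of Fos, Fosb and Fosl2.
Egr2, chr10:67537619-67537918, plus strand: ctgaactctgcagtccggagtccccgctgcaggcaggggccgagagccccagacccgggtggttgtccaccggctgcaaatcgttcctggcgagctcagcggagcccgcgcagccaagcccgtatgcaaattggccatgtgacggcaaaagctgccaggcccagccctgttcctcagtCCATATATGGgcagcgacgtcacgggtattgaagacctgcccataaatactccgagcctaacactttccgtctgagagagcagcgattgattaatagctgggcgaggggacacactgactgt
Junb, chr8:84978699-84978998, minus strand: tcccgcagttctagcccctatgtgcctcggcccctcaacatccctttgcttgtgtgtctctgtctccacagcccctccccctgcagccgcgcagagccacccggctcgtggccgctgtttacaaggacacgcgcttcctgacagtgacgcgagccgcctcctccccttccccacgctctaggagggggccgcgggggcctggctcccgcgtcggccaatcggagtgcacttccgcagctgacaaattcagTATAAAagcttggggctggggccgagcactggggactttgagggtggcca
Jun, chr4:95052173-95052472, minus strand: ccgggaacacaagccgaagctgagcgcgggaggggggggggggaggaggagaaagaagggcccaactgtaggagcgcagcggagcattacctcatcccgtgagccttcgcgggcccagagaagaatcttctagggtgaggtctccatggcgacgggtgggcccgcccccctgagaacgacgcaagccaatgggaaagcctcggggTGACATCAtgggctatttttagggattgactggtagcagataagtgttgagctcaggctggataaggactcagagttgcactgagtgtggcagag

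In these windows the match in Egr2 is the CArG box CCATATATGG, from -72 to -63 counted from the annotated start as 0; it reads the same on both strands. In Jun it is TGACATCA, from -45 to -38, and in Junb it is TATAAA, which begins at the annotated start itself. No match overlapped another motif. Of 32851 mouse promoter windows of this length, 1.63% hold a CArG box, a share that says nothing of Egr2, since its window was picked for that motif, 8.83% hold TGACNTCA and 13.6% hold TATAAA. The AP-1 motif TGANTCA is in 7.81% of windows, the NF-kB consensus in 8.46% and GCGTGGGCG in 0.612%, and these 3 motifs had no match in the 3 windows printed above. A match is a description of letters, not of binding.

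Fos encodes c-Fos, the classic immediate early gene product. It measured 9.79, 11.3, 11.2 and 10.9 FPKM in DoxSa 1 to 4, against 10.99, 6.01, 12.6 and 7.71 FPKM in DMSO 1 to 4. DMSO 1 and DMSO 3 were as high as DoxSa libraries or higher, and DMSO 2 and DMSO 4 were lower than all of them. The log2 fold change was 0.24 ± 0.17 (SE, n = 4 each, 95% interval -0.13 to 0.60, limma adjusted p = 0.480). It was 0.07 without DMSO 2 and 0.39 without DMSO 3, and neither fit called it.

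Fosl1 encodes FRA-1, which lacks the strong activation domain of c-Fos and often stays up after the early wave. It measured 39.3, 42.6, 44.6 and 45.0 FPKM in DoxSa 1 to 4, against 38.3, 37.4, 35.0 and 43.0 FPKM in DMSO 1 to 4. DMSO 4 lay among the DoxSa libraries, and the other DMSO libraries lay below them. The log2 fold change was 0.16 ± 0.06 (SE, n = 4 each, 95% interval 0.02 to 0.29, limma adjusted p = 0.179), and the adjusted p was 0.0464 without DMSO 4. Fosl1 overlaps Ccdc85b in the RefSeq table. That gene measured 8.94 ± 0.609 FPKM in DoxSa and 9.57 ± 0.280 FPKM in DMSO, and reads of the overlap cannot be told apart without strand.

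Fosl2 encodes FRA-2, a Fos protein with a known part in fat and connective tissue biology. It measured 23.5, 24.0, 24.6 and 24.0 FPKM in DoxSa 1 to 4, against 23.5, 23.6, 25.2 and 24.9 FPKM in DMSO 1 to 4. The groups overlapped, and the 95% interval of the log2 difference was -0.09 to 0.06 (limma adjusted p = 0.867, n = 4 each). Fosb, which encodes another activating Fos protein, rested on 37, 40, 35 and 23 reads in DoxSa 1 to 4, against 85, 18, 52 and 43 reads in DMSO 1 to 4. DMSO 1 was the highest and DMSO 2 the lowest of the 8 libraries. Fosb averaged 0.219 ± 0.0509 FPKM in DoxSa and 0.322 ± 0.178 FPKM in DMSO, and a fit with no filter on low values gave a log2 difference of -0.11 ± 0.09 (SE, limma adjusted p = 0.718).

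Egr2 encodes a zinc finger factor that is needed for myelination and is also active in macrophages and early adipogenesis. It measured 1.56, 1.52, 1.36 and 1.40 FPKM in DoxSa 1 to 4, against 1.17, 0.800, 1.07 and 0.771 FPKM in DMSO 1 to 4. The groups were apart, with DMSO 1 and DMSO 3 closest to the DoxSa libraries. These values rested on 507 to 587 reads in DoxSa and 285 to 434 reads in DMSO. The log2 fold change was 0.34 ± 0.07 (SE, n = 4 each, 95% interval 0.18 to 0.50, limma adjusted p = 0.0195), and it was 0.58 with a pseudocount of 0.1 and 0.63 by voom on recovered reads. The adjusted p lay between 0.00256 and 0.0902 over the alternatives. The call was lost without DoxSa 1 (0.0615), without DoxSa 2 (0.0612), without DMSO 2 (0.0537) and when low genes were not filtered out (0.0902). Gm32255, which overlaps Egr2 in the RefSeq table, had at most 0.136 FPKM in any library.

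Egr1 encodes the best known EGR protein, a fast sensor of growth factor and stress signals. It measured 10.4, 13.5, 12.5 and 10.3 FPKM in DoxSa 1 to 4, against 13.3, 5.31, 11.8 and 5.73 FPKM in DMSO 1 to 4. DMSO 1 and DMSO 3 lay within the DoxSa range and, as for Fos, DMSO 2 and DMSO 4 lay below it. The log2 fold change, 0.43 ± 0.24, had the widest interval of the 8 tested members, -0.09 to 0.95 (SE, n = 4 each, limma adjusted p = 0.358). It lay between 0.24, without DMSO 2, and 0.63, without DMSO 1, and no alternative called it. Egr3, a relative known from lymphocytes and muscle spindles, rested on 78, 111, 113 and 59 reads in DoxSa 1 to 4, against 64, 87, 72 and 42 reads in DMSO 1 to 4. The Egr3 groups overlapped, at 0.536 ± 0.163 FPKM in DoxSa and 0.398 ± 0.120 FPKM in DMSO (SD, n = 4 each), and with no filter on low values its log2 difference was 0.13 ± 0.09 (SE, limma adjusted p = 0.608).

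**Figure D2:**
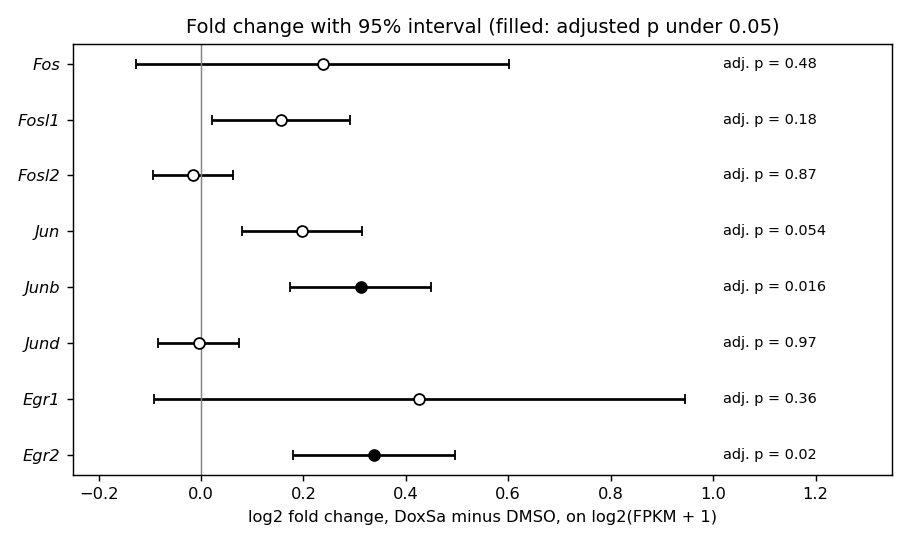
Log2 fold change of the 8 tested genes, DoxSa minus DMSO, on log2(FPKM + 1), with 95% intervals of the limma fit (horizontal axis); filled points have an adjusted p under 0.05 over 12060 genes. Junb and Egr2 are filled, Jund and Fosl2 sit at 0 with narrow intervals, and Fos and Egr1 have the widest intervals.

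The spread between libraries differed from member to member. The SD of log2(FPKM + 1) of Egr1 was 0.182 over the DoxSa libraries and 0.612 over the DMSO libraries, and the DMSO value exceeded that of 99.9% of tested genes. For Fos it was 0.087 in DoxSa and 0.435 in DMSO, and here too the DMSO value exceeded that of nearly all tested genes (99.7%). The medians over all tested genes were 0.0657 in DoxSa and 0.0724 in DMSO. Jund and Fosl2 lay at the other end, with 0.0291 and 0.0263 in DoxSa and 0.0496 and 0.0491 in DMSO. Whether the spread of Fos or Egr1 differs between the groups was not tested.

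Levels per kilobase put Fosl1 first, at a mean of 40.7 FPKM over the 8 libraries, followed by Junb (33.5 FPKM), Jun (28.2 FPKM), Jund (26.0 FPKM) and Fosl2 (24.2 FPKM). Egr1 and Fos came next at 10.4 and 10.1 FPKM, then Egr2 at 1.21, Egr3 at 0.467 and Fosb at 0.271 FPKM. Library values overlapped between neighbours from Fosl1 down to Jund, between Egr1 and Fos, and between Egr3 and Fosb. Fosl1 was thus more abundant than 87.0% of tested genes and Egr2 than 11.5%. The order depends on the gene lengths used: the length recovered from the table was 9083 bases for Egr2 and 2877 for Jund, where the exons of GENCODE M21 cover 3398 and 1668 bases. At those lengths Egr2 would average 3.23 FPKM and Jund 44.9 FPKM. The ratio of DoxSa to DMSO does not depend on length. The test does, through the pseudocount, the minimum mean and the intensity trend.

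Within each family the FPKM were also taken as shares, a description with no test because the members were chosen. Junb made up 39.2% to 40.3% of the summed FPKM of the 3 Jun genes in DoxSa, against 33.6% to 38.4% in DMSO. Jund averaged 27.9% ± 0.795 in DoxSa and 31.8% ± 1.88 in DMSO (SD, n = 4 each), and neither gene's range overlapped between the groups. Jun itself kept a like share, 32.3% ± 0.417 in DoxSa and 31.9% ± 1.82 in DMSO (SD, n = 4 each). Among the 4 Fos genes, Fosl1 was the main transcript in every library, with 54.0% to 56.2% in DoxSa and 47.9% to 56.7% in DMSO. Fos held 13.4% to 14.5% in DoxSa and 8.96% to 17.2% in DMSO, and Fosl2 held 30.0% to 32.2% in DoxSa and 32.1% to 35.2% in DMSO, overlapping at the edge. The size of each share depends on the gene lengths, and RNA shares do not give the makeup of the protein dimers.

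**Figure D3:**
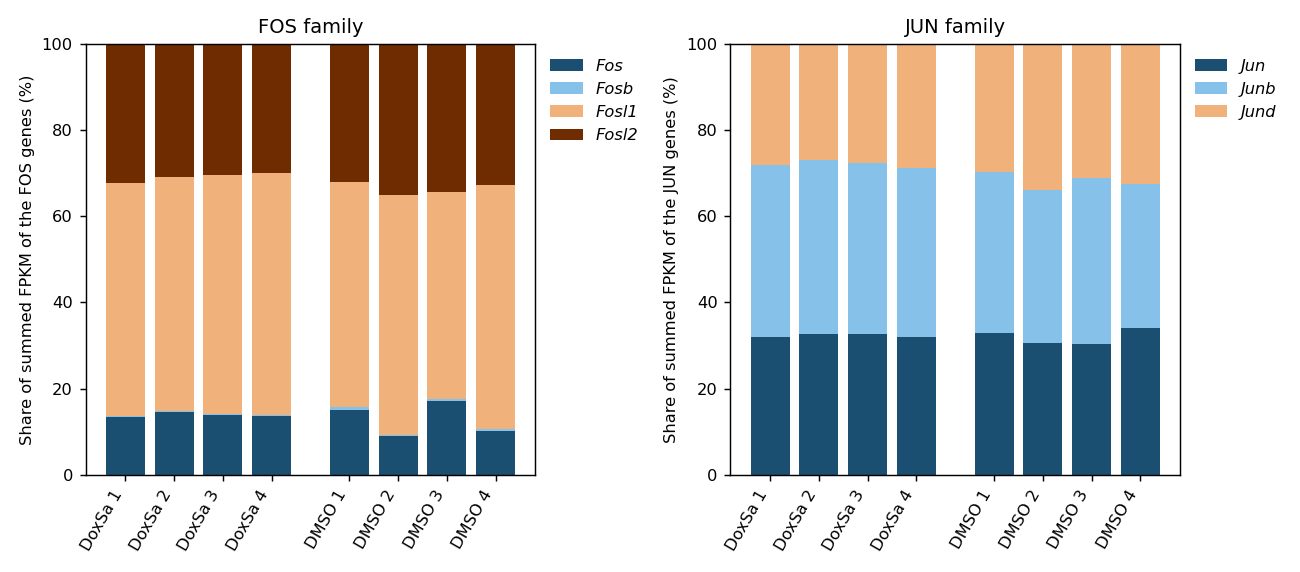
Share of the summed FPKM (%, vertical axes) that each gene holds among the 4 FOS genes, left, and the 3 JUN genes, right, in each of the 4 DoxSa libraries and then the 4 DMSO libraries. The Junb band is thicker and the Jund band thinner in DoxSa, and the Fos band varies from 8.96% to 17.2% among the DMSO libraries.

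The label calls the cells mature adipocytes, and all 12 adipocyte markers were tested, with a summed level of 10600 to 11300 FPKM in DoxSa and 10700 to 11100 FPKM in DMSO; Retn alone was called, and lower. Macrophage markers were also abundant, 10 of 10 tested, led by Lyz2 at 5051 ± 227 FPKM in DoxSa and 4631 ± 330 FPKM in DMSO. Their sum was 7550, 8060, 7580 and 8040 FPKM in DoxSa 1 to 4, against 7260, 7000, 7780 and 6780 FPKM in DMSO 1 to 4. Most of this sum is Lyz2, at 4552, 4542, 5100 and 4328 FPKM in DMSO 1 to 4. DMSO 1 and DMSO 3 were thus the higher DMSO libraries for the sum, as for Fos, Fosb, Egr1, Egr2 and Junb. Jun, Jund, Fosl1, Fosl2 and Egr3 did not share this order. Jun, for example, measured 28.9, 24.5, 24.9 and 26.6 FPKM in DMSO 1 to 4. Of the macrophage markers, Fcgr1 alone did not have DMSO 1 and DMSO 3 highest, at 21.45, 16.58, 16.1 and 17.91 FPKM in DMSO 1 to 4. Fcgr1 was the one macrophage marker called higher (22.8 ± 1.80 FPKM in DoxSa and 18.0 ± 2.42 FPKM in DMSO). The log2 differences of all 10 were positive, but those of Csf1r, Mrc1 and Itgam were only 0.000423, 0.0356 and 0.0654. Csf1r averaged 100.6 FPKM in DoxSa and 100.7 FPKM in DMSO. In bulk RNA, more cells of a type and more RNA per cell cannot be told apart, and the part of macrophages in the values of Junb and Egr2 was not tested. Endothelial, mural, mesothelial and neutrophil markers summed to at most 17.3 FPKM in any library. Those of lymphocytes reached at most 0.120 FPKM, with Cd3e and Cd79a below 0.1 FPKM throughout.

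Profiles most like those of the called members were sought among 10642 genes that averaged 1 FPKM or more, by the root mean square difference of log2(FPKM + 1) around each gene's mean over the 8 libraries. Nearest to Junb were Cfp (0.0239), which encodes the complement protein properdin, then Neurl3 (0.0481) and Icam1 (0.0484), the gene of an adhesion molecule for leukocytes. Nearest to Egr2 were Cfp (0.0438), Nfkbia (0.0460), the gene of an inhibitor of NF-kB, and Neurl3 (0.0484). Cfp measured 124, 131, 126 and 125 FPKM in DoxSa 1 to 4, against 112, 97.2, 106 and 92.2 FPKM in DMSO 1 to 4. Its DMSO libraries fell in the same order as those of Junb. The likeness rests on 8 libraries and includes the difference between the groups that chose Junb and Egr2. For Egr2, a low gene, it also depends on the pseudocount, which shrinks its profile. Its log2 fold change was 0.34 on this scale and 0.63 by voom, and the likeness was not repeated with another pseudocount.

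Other genes of the pathway were grouped by role. The lists were drawn up with earlier results of these libraries known, so their counts are no independent evidence of a direction, and several genes stand in more than 1 list. Over all tested genes, limma called 3.88% higher and 2.02% lower, the shares to set each count against. Of 12 tested partners that can join FOS or JUN in a dimer, 2 rose and none was called lower (limma; 0 at an unadjusted p under 0.05, and 0 by voom), with a median log2 fold change of 0.09. Atf3, a stress-induced partner that often represses, measured 16.1, 14.7, 13.8 and 12.5 FPKM in DoxSa 1 to 4, against 9.72, 7.46, 7.78 and 9.32 FPKM in DMSO 1 to 4. The groups were well apart, and its log2 fold change of 0.68 ± 0.09 (SE, limma adjusted p = 0.00135, n = 4 each) exceeded that of all 8 tested members. Atf4, the main factor of the integrated stress response, measured 138 ± 3.74 FPKM in DoxSa and 122 ± 3.16 FPKM in DMSO (SD, n = 4 each; log2 fold change 0.18 ± 0.03, SE, limma adjusted p = 0.0113). None of the other tested partners, among them Batf, Jdp2 and the Maf genes, passed by limma, while voom called 3 partners higher, with the small Maf gene Mafk as the third (1.89 ± 0.0822 FPKM in DoxSa and 1.60 ± 0.113 FPKM in DMSO; limma adjusted p = 0.115, n = 4 each).

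Among the genes that stand upstream, none was called. Of 22 tested MAP kinases and their kinases, including those of the JNK and ERK routes, none was called by limma in either direction. None of them had an unadjusted p under 0.05 and none was called by voom. Over all tested genes, limma called 3.88% higher and 2.02% lower. In a list this small, 0 calls is close to those shares. Of 11 tested genes of the serum response machinery (Srf, its Elk partners, the actin-sensing Mrtf cofactors and the Creb group), none was called by limma or voom, and 1 higher and 1 lower had an unadjusted p under 0.05. Their medians were -0.00105 and -0.00405. Nab1 and Nab2, corepressors that EGR proteins induce and that bind them, did not pass either: Nab2 measured 21.9 FPKM in DoxSa and 23.1 FPKM in DMSO. These are RNA levels, and kinases act through phosphorylation, which was not measured. Egr4 is not analysed here.

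Feedback phosphatases and other immediate early genes moved in part. Of 8 tested MAP kinase phosphatases only Dusp5, which acts on nuclear ERK, rose, at 2.48 ± 0.0592 FPKM in DoxSa and 1.43 ± 0.291 FPKM in DMSO (SD, n = 4 each; log2 fold change 0.53 ± 0.08, SE, limma adjusted p = 0.00288), and with a minimum mean of 2 FPKM it was not tested. None of the 8 was called lower (limma; 0 at an unadjusted p under 0.05, and 0 by voom). Of 42 other tested immediate early genes, 9 rose (21.4%) and 3 fell (7.14%), with a median of 0.07. The shares over all tested genes were 3.88% higher and 2.02% lower. Without DoxSa 1, 5 of the 42 were called higher, and 4 without the filter on low genes. Those with the smallest adjusted p among the risers were Plk2, a kinase gene also induced by p53, Phlda1, which encodes a pleckstrin homology protein, and Id2, whose product binds and blocks helix-loop-helix factors. Plk2 measured 21.7 ± 1.46 FPKM in DoxSa and 13.9 ± 0.669 FPKM in DMSO, and Phlda1 6.34 ± 0.482 FPKM in DoxSa and 3.89 ± 0.718 FPKM in DMSO. Nfkbia, with 32.6 ± 1.39 FPKM in DoxSa and 25.8 ± 2.17 FPKM in DMSO, and Nr4a2, an orphan nuclear receptor gene at 0.743 FPKM in DoxSa and 0.468 FPKM in DMSO, also rose. Ccn2, which encodes a matricellular growth factor, and Gadd45g, a stress gene, fell by 0.53 and 0.42 on the log2 scale. Without the filter on low genes the adjusted p of Nfkbia was 0.0530.

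Known AP-1 targets were the list with the largest share of rises. Of 22 tested, 15 rose (68.2%, against 3.88% of all tested genes) and none was called lower by limma, with a median log2 fold change of 0.35. At an unadjusted p under 0.05, 16 were higher and 1 lower, and voom called 15 higher and 1 lower. Without DoxSa 3, limma called 1 lower. Spp1, which encodes the matrix cytokine osteopontin, measured 519, 471, 383 and 407 FPKM in DoxSa 1 to 4, against 231, 217, 227 and 222 FPKM in DMSO 1 to 4, a log2 fold change of 0.98 ± 0.08 (SE, limma adjusted p = 9.53e-05, n = 4 each). Il1rl1, the gene of the interleukin 33 receptor, measured 6.41 ± 0.928 FPKM in DoxSa and 3.57 ± 0.387 FPKM in DMSO (SD, n = 4 each). Ptgs2 (cyclooxygenase 2), Timp1 (an inhibitor of matrix proteases) and Ccl2 (a chemokine that draws monocytes) had log2 fold changes of 1.42, 0.38 and 0.78. Cd44, a hyaluronan receptor gene, rose by 0.29, and the matrix protease genes Mmp3 and Mmp13 rose by 0.54 and 0.40. Mmp3 averaged 4.82 FPKM in DoxSa and 2.98 FPKM in DMSO, and Mmp13 2.60 and 1.71 FPKM. Mmp9, the most abundant matrix protease gene of this list, overlapped between the groups and was not called. It measured 148 ± 21.3 FPKM in DoxSa and 136 ± 33.3 FPKM in DMSO (SD, n = 4 each, limma adjusted p = 0.683). Mmp10 was too low to test. Ccnd1, the gene of cyclin D1, did not pass, at 63.0 FPKM in DoxSa and 61.2 FPKM in DMSO. Most of these genes also answer to other factors, such as NF-kB.

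Listed targets of EGR proteins were mixed. Of 16 tested, 4 rose and 2 fell, with a median of 0.07, and 1 was called higher without the filter on low genes. The counts of 4 and 2 are to be read against the 3.88% of all tested genes called higher and the 2.02% called lower. Besides Cd44, the risers were Gadd45a, a growth arrest gene, Icam1 and Tgfb1, with log2 fold changes of 0.45, 0.28 and 0.17; Cd44, which stands in both target lists, and these 3 make up the 4. Without the filter on low genes the adjusted p was 0.0616 for Gadd45a and 0.0712 for Icam1. Tgfb1, the gene of the growth factor TGF-beta 1, lost its call without DoxSa 1, DoxSa 2 or DoxSa 3 (adjusted p between 0.0505 and 0.0646) and without the filter on low genes (0.0678). The genes that fell were Thbs1, which encodes the matrix protein thrombospondin 1, and F3, which encodes tissue factor. Thbs1 measured 671 ± 32.8 FPKM in DoxSa and 936 ± 33.0 FPKM in DMSO, and F3 167 ± 9.84 FPKM in DoxSa and 218 ± 8.01 FPKM in DMSO (SD, n = 4 each).

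Serum response factor drives immediate early genes with its Elk partners and contractile genes with its Mrtf partners. Listed as targets of SRF with its Mrtf partners were 18 tested genes, mostly contractile and cytoskeletal genes but also Srf itself, Ccn1 and Ccn2. Of these, 14 fell (77.8%, against 2.02% of all tested genes), Ccn1 and Ccn2 among them, with a median log2 fold change of -0.35. None of the 18 was called higher by limma or voom, and 0 were higher at an unadjusted limma p under 0.05. Acta2, the smooth muscle actin gene, measured 172, 191, 190 and 184 FPKM in DoxSa 1 to 4, against 279, 309, 299 and 267 FPKM in DMSO 1 to 4. Every DoxSa library was lower than every DMSO library. Myl9 (a myosin light chain), Actg2 (another smooth muscle actin) and Fhl2 (a LIM domain cofactor) fell by 0.68, 0.86 and 0.50 on the log2 scale. Mural markers summed to 8.55 to 9.47 FPKM in DoxSa and 7.71 to 9.70 FPKM in DMSO, and preadipocyte and fibroblast markers to 1950 to 2170 FPKM in DoxSa and 1930 to 2210 FPKM in DMSO; these ranges overlapped. Mesothelial markers, nearly all of them reads of Krt19, summed to 11.6 to 16.2 FPKM in DoxSa and 16.8 to 17.3 FPKM in DMSO, wholly lower in DoxSa. Krt19 was not called (limma adjusted p = 0.113), and the other mesothelial markers, such as Msln and Wt1, were too low to test. The part of these markers in the result was not tested. Egr2, whose window shown above was picked for its CArG box, rose, and binding of serum response factor there was not tested.

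**Figure D4:**
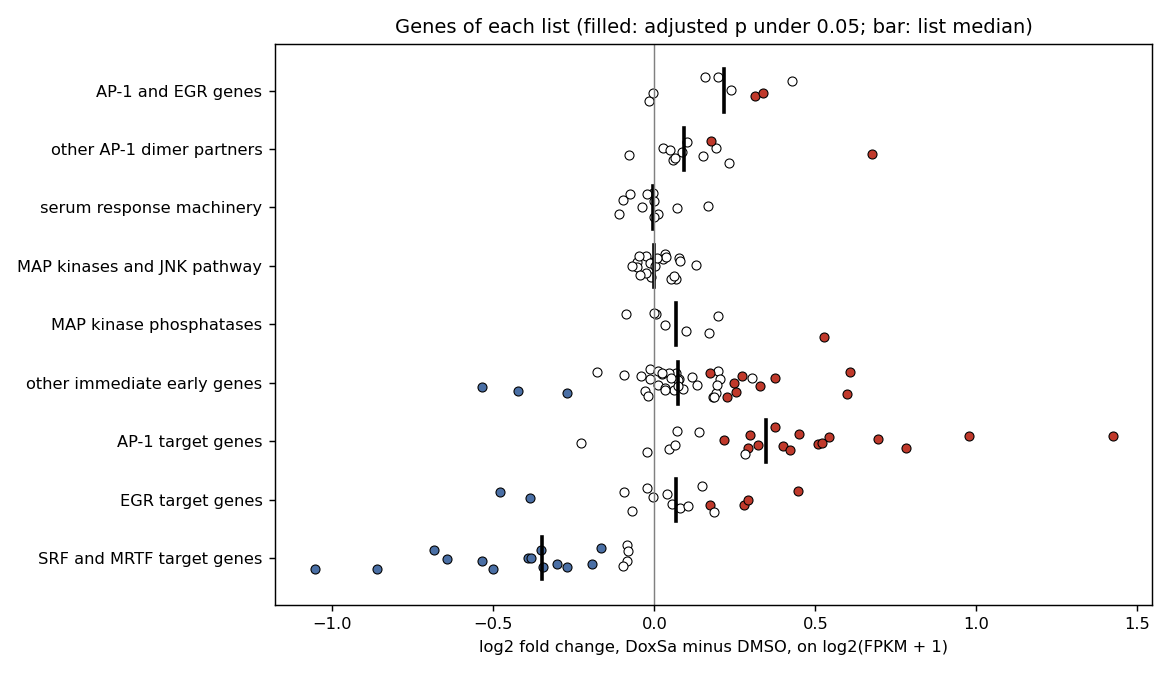
Log2 fold change of each tested gene, DoxSa minus DMSO (horizontal axis), for the 8 tested AP-1 and EGR genes and for 8 lists grouped by role; filled points have a limma adjusted p under 0.05 and upright bars are list medians. AP-1 targets lie mostly to the right (median 0.35), SRF and MRTF targets lie to the left (median -0.35), and the kinases and the serum response machinery sit near 0.

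The libraries held between 39213008 and 41365861 reads, as recovered from the steps of the FPKM values, and the smallest count behind any value of the 10 genes was 18 reads, for Fosb in DMSO 2. Over all tested genes 468 were called higher and 244 lower; the typical size of those changes (median) was 0.286 on the log2 scale. Without DoxSa 1 these counts were 250 and 154, without DoxSa 2 they were 234 and 152, and without DMSO 2 the lower genes numbered 158. With quantile normalization 384 were higher and 316 lower. Libraries of one group always differed by more than sampling noise: the chi-square of 2 such libraries was 5.67 times its degrees of freedom or more.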

How the data were processed

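RNA-seq libraries of differentiated mouse stromal vascular cells, 4 with DoxSa and 4 with DMSO, were assigned to groups and replicate numbers from their titles. HISAT2, HTSeq and the build GRCm39 are named, per the submitters' processing notes; their versions, the annotation and the strand setting were not found in those notes. Deposited by the authors was 1 FPKM table with 22962 genes and 1 column per library. FPKM carries no correction for genes that take much of a library.

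Whole reads were recovered from the steps of low FPKM values (22962 of 22962 genes within 0.001 of whole numbers in all 8 libraries; a length is the smallest that fits). The test was limma 3.58.1 (R 4.3.3; lmFit, eBayes with an intensity trend) on log2(FPKM + 1), with no covariate, for the 12060 genes that averaged 0.5 FPKM or more; p-values were Benjamini-Hochberg adjusted over all of them. SE and 95% intervals are moderated. The script was tested on simulated data. Other steps used Python 3.11.15, pandas 2.3.3 and matplotlib 3.10.9. Alternatives were other pseudocounts, filters, scalings, variance settings and voom, a replicate block, and leaving out each library.

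All members were named. Of other lists, called genes were named: every one for dimer partners, Nab and serum response genes, and up to 5 in the main and 2 in the other direction elsewhere, by adjusted p, plus the 3 nearest profiles of each called member; Mafk, Mmp3, Mmp13, Ccnd1, Ccdc85b and other named genes outside this rule were chosen after their values were seen, and some single genes of the lists are not reported here. Members and lists were chosen with earlier results of these data known. Promoters come from RefSeq (GRCm38.p6), a build other than that of the table, and serve only for their sequence.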

Additional observations from a re-analysis of the deposited data

How the results depend on the processing

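Junb and Egr2 were both called higher with pseudocounts of 0.1 and 0.5, 3 other scalings, no intensity trend, library quality weights, voom on recovered reads and the replicate block. With a minimum mean of 2 FPKM, Egr2 was not tested. Without the filter on low genes 0 members were called (158 genes higher and 108 lower over all genes, where more genes enter the adjustment), against 2 members, 468 genes higher and 244 lower. Leaving out 1 library gave 0 to 3 members called higher and 0 called lower, 234 to 486 genes higher and 152 to 234 lower, and 23 to 32 genes of the other lists higher and 15 to 18 lower. Over the other alternatives the replicate block gave 415 higher and 209 lower genes and 2 members, and changed the call of no member. Same-numbered libraries did not deviate together (correlations -0.0581, 0.0519, -0.0989 and 0.0654), nor did each library correlate best with its own number, so the block is no pairing from the design. Voom gave 627 and 317. Quantile normalization gave 384 higher and 316 lower genes. This moves the share of higher genes among the called genes, not among all tested genes, by over 10 percentage points. There too 2 members were called higher.

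Jund and Fosl2, near 0, changed sign: Jund was 0.00700 without DoxSa 1, 0.000282 without DoxSa 3 and 0.0193 without DMSO 2, and Fosl2 was 0.00118 without DMSO 3; leaving out 1 library gave -0.0181 to 0.0193 for Jund and -0.0303 to 0.00118 for Fosl2, none called. Depth limits Fosb and Egr3, whose values rest on 18 to 113 reads.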
